A study of Mus musculus with 2 samples.

Results

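The sodium pump subunits and aquaporins that fill the blastocyst cavity were examined in mouse morulae after depletion of Nat10, the enzyme that writes N4-acetylcytidine on RNA. The rule names 6 genes: the pump subunits Atp1b1 and Atp1b3 and the aquaporins Aqp3, Aqp8, Aqp9 and Aqp11. Of these, 5 have a row among the 12836 genes of the deposited table, and Aqp8 is not analysed here. The groups compared were dsNat10, 1 library of ICR morulae that had received an injection of double-stranded RNA targeting Nat10, and dsGFP, 1 library of ICR morulae given double-stranded RNA for GFP, a control sequence foreign to the mouse. Such RNA lowers its target through RNA interference. The design text speaks of 50 morulae and does not say whether that is per library or how many embryos each library pooled. With 1 library per group, no difference below has a replicate check. Every value describes these 2 libraries.

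Before implantation, the outer cells of the mouse embryo become the trophectoderm, an epithelium sealed by tight junctions. The sodium pump, an ATPase with a catalytic alpha and a glycosylated beta subunit, moves sodium out of these cells across their basolateral side. Water follows the salt through aquaporins and collects as the cavity of the blastocyst, a step called cavitation. In mouse embryos, loss of Atp1b1 blocks cavity formation. Aqp3 and Aqp8 have been located to the basolateral membrane and Aqp9 to the apical membrane of the mouse trophectoderm.

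The rounded read counts of the genes in the deposited table summed to 28303119 in dsNat10 and 29139232 in dsGFP. Levels are given as CPM, reads per 1000000 with TMM scaling between libraries, and levels of different genes are compared in the authors' TPM, which divides by gene length. Nat10, the target, had 37 reads in dsNat10 and 886 in dsGFP, or 4.22% of the control level. Of 10 early embryo markers, 9 are in the table and 0 of these were at 0 in either library, with a summed level of 8006 CPM in dsNat10 and 8510 CPM in dsGFP. Dppa5a, whose reads are also fractional, made up 4899 CPM of that sum in dsNat10 and 4562 CPM in dsGFP. Of these 9 markers, 6 had a log2 ratio below 0 and 3 were called lower (Cdx2, Krt8 and Nanog, the last with fractional reads), with a median of -0.73. Of 7 cumulus cell markers, 1 is in the table, with 29.1 CPM in dsNat10 and 33.8 CPM in dsGFP. Markers of blood, endothelium and fibroblasts (4 of 7 in the table) summed to 92.2 CPM in dsNat10 and 73.3 CPM in dsGFP. Pecam1 made up most of that sum in dsNat10, with 65.8 CPM in dsNat10 and 35.9 CPM in dsGFP. The other 3 (Cd68, Hba-a1 and Col1a1) were lower in dsNat10. Whether the Pecam1 reads came from endothelium or from the embryo itself was not tested. Of 6 markers of the oocyte and polar body, 2 are in the table and stood on opposite sides. Zp3 had 642 reads in dsNat10 and 106 in dsGFP, and Gdf9 had 1 read in dsNat10 and 54 in dsGFP. The part of such cells in the results was not tested.

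The bases upstream of a transcription start of Aqp3, Aqp9 and Atp1b3 are shown because these are the abundant members, 1 of them lower and 2 of them higher in dsNat10. Each stretch is the 250 bases before a transcription start in the RefSeq promoter table of GRCm38.p6, on the minus strand. All 5 members matched that table by symbol. Aqp3 is chr4:41098184-41098433. Aqp9 is chr9:71163290-71163539, at the more upstream of its starts in that table. Atp1b3 is chr9:96364432-96364681, also at the more upstream start. The Aqp9 stretch lies inside the span of its gene, 71110659 to 71167849, so it is upstream of that start only. Capitals mark a GC box (GGGCGG) or a TATA box (TATAAA), searched on both strands.
Aqp3: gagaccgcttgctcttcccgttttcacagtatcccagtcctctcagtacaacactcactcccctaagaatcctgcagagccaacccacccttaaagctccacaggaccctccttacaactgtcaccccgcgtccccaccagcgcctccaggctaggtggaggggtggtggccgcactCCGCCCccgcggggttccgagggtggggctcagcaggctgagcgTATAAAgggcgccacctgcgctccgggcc
Aqp9: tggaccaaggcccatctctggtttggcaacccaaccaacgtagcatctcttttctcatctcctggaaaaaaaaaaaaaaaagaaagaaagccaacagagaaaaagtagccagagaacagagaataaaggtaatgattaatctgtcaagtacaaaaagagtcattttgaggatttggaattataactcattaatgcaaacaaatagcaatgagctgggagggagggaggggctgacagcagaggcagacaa
Atp1b3: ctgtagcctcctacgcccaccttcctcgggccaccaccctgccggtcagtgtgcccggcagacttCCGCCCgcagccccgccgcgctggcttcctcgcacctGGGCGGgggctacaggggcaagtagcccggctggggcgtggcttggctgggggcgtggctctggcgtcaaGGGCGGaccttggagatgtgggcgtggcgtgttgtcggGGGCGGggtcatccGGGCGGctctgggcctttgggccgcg
The Aqp3 stretch holds 1 GC box and 1 TATA box, the Atp1b3 stretch holds 5 GC boxes, and the Aqp9 stretch holds neither motif. The stretch at the other Atp1b3 start in the table, chr9:96363716-96363965, holds 0 GC boxes, and that at the other Aqp9 start holds neither motif. Both of these stretches also lie inside the spans of their genes. The share of G and C was 64.0% for Aqp3, 40.4% for Aqp9 and 73.6% for Atp1b3. Among 32851 upstream stretches of the same length in the table, 32.7% hold the GC box and 12.4% the TATA box. The letters GCCNNNGGC, bound by AP-2 factors, are in none of the stretches of the 5 members and in 13.7% of all. The letters GGAATG, bound by Tead factors, are likewise in none of the members' stretches and in 12.6% of all. No motif here overlapped another. A match describes the letters only.

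Atp1b3 and Aqp9 were higher and Atp1b1 and Aqp3 lower in dsNat10 than in dsGFP, each by less than 2-fold, and the scarce Aqp11 had reads in dsGFP only. In RNA from whole pooled embryos, fewer outer cells and less of an RNA per cell cannot be told apart. A gene was called when its mean was 5 CPM or more, its log2 ratio of CPM + 1 was at least 1 in size and the 95% interval of its read ratio excluded equality. Of the 5 members in the table, 4 passed the mean filter, and 0 of these were called higher and 0 lower. The same rule called 30.5% of the 8738 genes that passed the filter, 15.2% higher and 15.3% lower. At a mean level from 100 CPM upwards, a limit added after seeing the data, it called 4.87% of 2114 genes, 2.32% higher and 2.55% lower. Aqp3, Aqp9 and Atp1b3 are in that class. The median log2 ratio was 0.10 over the 4 members that passed and 0.01 over all 8738 genes. Over all 5 members in the table, with Aqp11 at its bound, the median of the plain log2 ratio was -0.24.

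**Figure D1:**
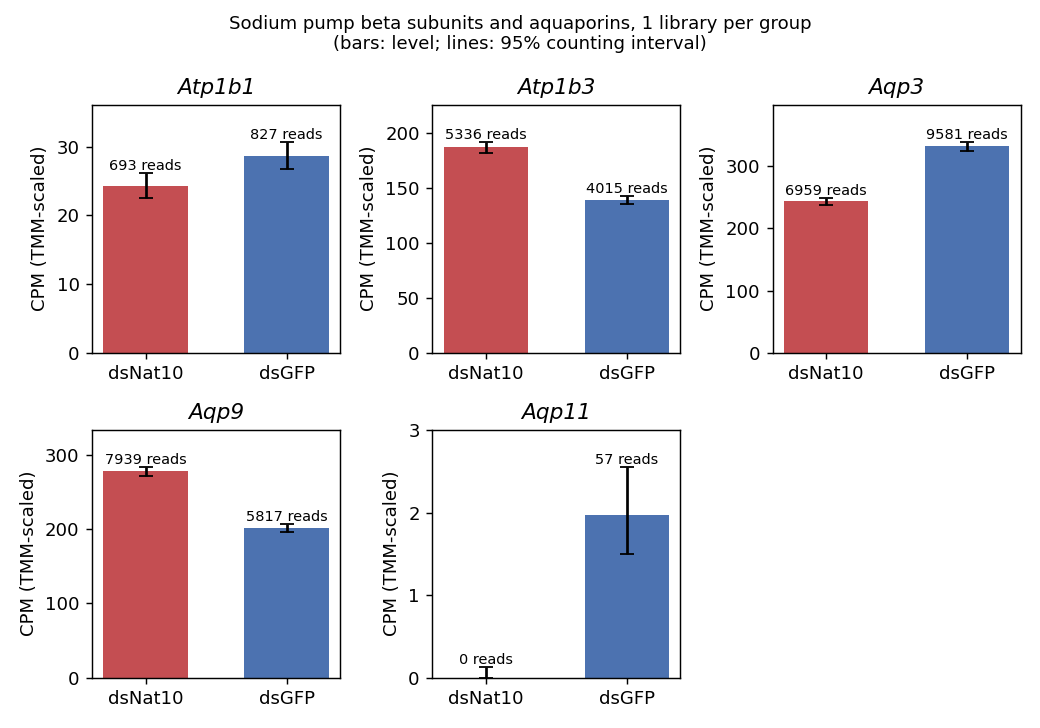
Level in CPM (vertical axes, each from 0) of the members in the dsNat10 library (left bars) and the dsGFP library (right bars). Lines are 95% Poisson counting intervals and the numbers are reads. Atp1b3 and Aqp9 stand higher in dsNat10, while Atp1b1 and Aqp3 stand lower, and Aqp11 has 0 reads there.

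Among the pump subunits, the beta subunits stood on opposite sides. Atp1b1 (Entrez gene 11931, GRCm38 chromosome 1, 164437099 to 164458355), the beta1 subunit that guides the catalytic subunit to the membrane, had 693.34 estimated reads in dsNat10 and 827.02 in dsGFP. Its level was 24.3 CPM in dsNat10 and 28.6 CPM in dsGFP, 1.18-fold lower (95% counting interval 1.07 to 1.31; log2 ratio -0.23). The counting interval excludes equality, and the size is short of the 2-fold limit. Of 881 other genes within 1.2-fold of its mean level, 82.5% had a log2 ratio at least as far from 0.

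The reads of Atp1b1 are fractional and its value is uncertain. In GENCODE M21, 575 bases of its exons overlap exons of Nme7, a gene on the opposite strand, and the SMART-seq2 kit does not mark strand. Nme7 had 405.66 estimated reads in dsNat10 and 478.98 in dsGFP. The estimated reads of Atp1b1 and Nme7 add up to 1099.00 in dsNat10 and 1306.00 in dsGFP, a whole number to 2 decimals in each library. Nme7 itself was 1.17-fold lower in dsNat10 (1.02 to 1.34).

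Atp1b3 (Entrez gene 11933, chromosome 9, 96332655 to 96364431), which encodes the beta3 subunit, had 5336 reads in dsNat10 and 4015 in dsGFP. Its level was 187 CPM in dsNat10 and 139 CPM in dsGFP, 1.34-fold higher (1.29 to 1.40; log2 ratio 0.42). No exon of another annotated gene overlaps its exons. A log2 ratio at least as far from 0 was found for 37.0% of 467 other genes of like level, and 16.9% were at least as high.

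Atp1b3 was the more abundant beta subunit in each library. Per length, it stood at 153 TPM in dsNat10 and 110 TPM in dsGFP, and Atp1b1 at 14.9 TPM in dsNat10 and 16.9 TPM in dsGFP. Atp1b3 made up 91.1% of the summed TPM of both in dsNat10 and 86.7% in dsGFP. The sum of both was 168 TPM in dsNat10 and 127 TPM in dsGFP. Reads of Atp1b3 per read of Atp1b1 were 7.70 in dsNat10 and 4.85 in dsGFP, a quotient of 1.59 (1.42 to 1.77, Woolf 95% interval for counting error). This quotient is taken within each library, so no scaling between libraries enters it. The shares and the quotient rest on the uncertain fractional reads of Atp1b1, and the interval does not cover that uncertainty.

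Both abundant aquaporins were well covered by reads and stood on opposite sides. Aqp3 (Entrez gene 11828, chromosome 4, 41092724 to 41098183), a basolateral channel that also passes glycerol, had 6959 reads in dsNat10 and 9581 in dsGFP. Its level was 244 CPM in dsNat10 and 332 CPM in dsGFP, 1.36-fold lower (1.32 to 1.41; log2 ratio -0.44). Aqp9 (Entrez gene 64008, chromosome 9, 71110659 to 71167849), an apical channel for water, glycerol and other small solutes, had 7939 reads in dsNat10 and 5817 in dsGFP. Its level was 278 CPM in dsNat10 and 202 CPM in dsGFP, 1.38-fold higher (1.33 to 1.43; log2 ratio 0.46). Each interval excludes equality for counting error, and neither size reaches the 2-fold limit.

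Differences of that size were common among genes as abundant. A log2 ratio at least as far from 0 was found for 30.9% of 376 other genes within 1.2-fold of the level of Aqp3 and for 30.1% of 428 near Aqp9. In the same direction, 17.3% were at least as low as Aqp3 and 13.6% at least as high as Aqp9. The exons of Aqp3 and Aqp9 overlap no exon of another annotated gene, and the reads of both are whole numbers.

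The ratio of the pair differed between the libraries. Reads of Aqp9 per read of Aqp3 were 1.14 in dsNat10 and 0.607 in dsGFP, a quotient of 1.88 (1.79 to 1.97). The intervals of such quotients cover counting error only, and how often other gene pairs differ as much was not tested. Per length, Aqp9 per Aqp3 was 0.779 in dsNat10 and 0.410 in dsGFP. Aqp3 therefore remained the more abundant channel per length, at 228 TPM against 177 TPM for Aqp9 in dsNat10 and at 298 TPM against 122 TPM in dsGFP. Of the summed TPM of Aqp3, Aqp7, Aqp9 and Aqp11, Aqp3 held 56.2% in dsNat10 and 70.1% in dsGFP, and Aqp9 held 43.8% in dsNat10 and 28.8% in dsGFP. That sum was 406 TPM in dsNat10 and 426 TPM in dsGFP. Reads of Aqp9 per read of Atp1b3 were 1.49 in dsNat10 and 1.45 in dsGFP, and the interval of their quotient (0.974 to 1.08) includes equality.

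Aqp11 (Entrez gene 66333, chromosome 7, 97726379 to 97738247), an aquaporin of intracellular membranes whose loss in mice causes cystic kidneys, was scarce. It had 0 reads in dsNat10 and 57 reads in dsGFP, a level of 1.97 CPM and 2.46 TPM in dsGFP. Against a floor of 3 dsNat10 reads, or 0.105 CPM, it was at least 18.8-fold lower, with the 57 dsGFP reads taken as exact. Its mean of 0.987 CPM is below the filter, so it was not called. Zeros were common among such genes in dsNat10. Of 509 other genes with dsGFP reads within 1.2-fold of 57, 51.7% had 0 reads in dsNat10. Of 173 genes with as many reads in dsNat10, 9.83% had 0 reads in dsGFP. Over the whole table, 2657 genes had 0 reads in dsNat10 and 458 had 0 in dsGFP. The bound for Aqp11 does not cover such common zeros.

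**Figure D2:**
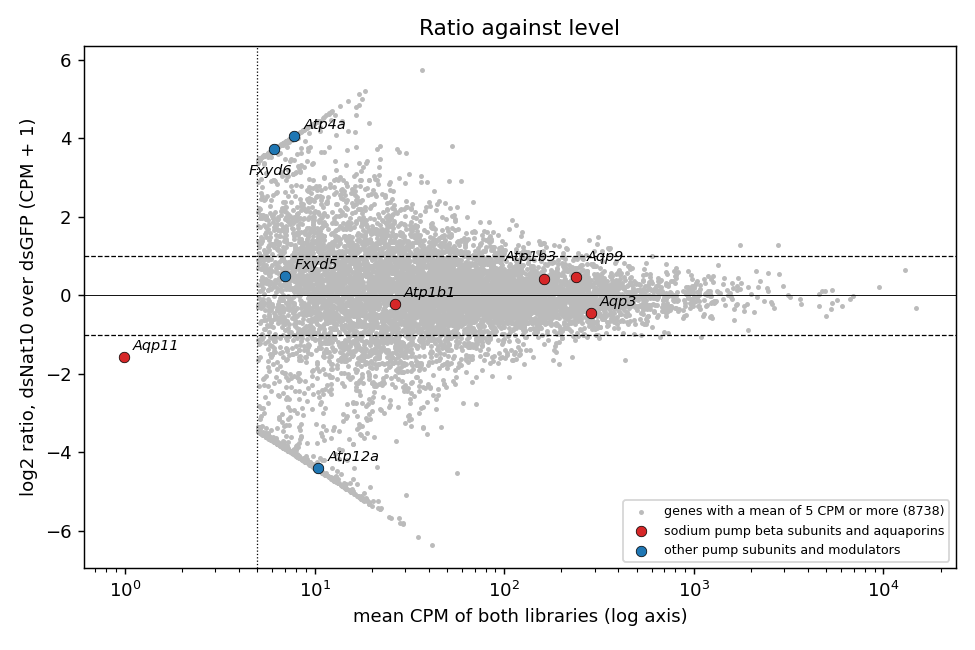
Log2 ratio of dsNat10 over dsGFP (vertical axis, CPM + 1) against the mean CPM of both libraries (log axis). Grey points are the 8738 genes that passed the filter, red points the members, blue points other pump subunits and modulators, and dashed lines the limit of 1 in size. Aqp3, Aqp9, Atp1b3 and Atp1b1 lie between the dashed lines, and Aqp11 lies left of the filter.

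The order of the members per length was the same in each library. Aqp3 was highest, followed by Aqp9, Atp1b3, Atp1b1 and Aqp11. Aqp11, at 0 reads in dsNat10, has no interval there. Where both neighbours in that order had a 95% counting interval, the intervals did not overlap. These intervals cover neither the gene lengths nor the uncertain reads of Atp1b1. In dsNat10 they were 223 to 233 TPM for Aqp3, 174 to 181 for Aqp9, 149 to 158 for Atp1b3 and 13.8 to 16.1 for Atp1b1. In dsGFP they were 292 to 304 TPM for Aqp3, 119 to 126 for Aqp9, 107 to 114 for Atp1b3, 15.8 to 18.1 for Atp1b1 and 1.86 to 3.19 for Aqp11. Among all genes of the table, 6.62% had more TPM than Aqp3 in dsNat10 and 5.23% in dsGFP. For Aqp9 this was 8.42% in dsNat10 and 11.6% in dsGFP, for Atp1b3 9.50% in dsNat10 and 12.5% in dsGFP, and for Atp1b1 39.5% in dsNat10 and 37.0% in dsGFP. The members summed to 574 TPM in dsNat10 and 550 TPM in dsGFP.

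The gene lengths implied by reads and FPKM differed little between libraries for the members detected in both. They were 1578 bases in dsNat10 and 1576 in dsGFP for Aqp3, and 2311 in dsNat10 and 2331 in dsGFP for Aqp9. For Atp1b3 they were 1798 in dsNat10 and 1788 in dsGFP, and for Atp1b1 2406 in dsNat10 and 2403 in dsGFP. Ratios in TPM and CPM therefore rest on nearly the same lengths. For Aqp11 the implied length in dsGFP was 1137 bases, against 3737 bases for its longest coding transcript in GENCODE M21.

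The genes nearest to each member in level over the 2 libraries, by Euclidean distance of log2(CPM + 1), were Hirip3 and Zc3h12c for Atp1b1, Ccar1 and Hsbp1 for Atp1b3, Tpd52l2 and Puf60 for Aqp3, and Seh1l and Tmem120a for Aqp9. The distances were between 0.0062 and 0.050. Likeness over 2 libraries describes level and ratio only.

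Of 19 other pump subunits, modulators and related proton pumps, 7 are in the table and 4 passed the filter. Of these, 2 were called higher and 1 lower, beside 30.5% of all genes called either way. The called genes of this list were all scarce, at 1 read or none in 1 library. They passed the filter through the other library alone, so their calls followed from passing. Atp12a, the alpha subunit of the non-gastric proton-potassium pump, had 1 read in dsNat10 and 604 in dsGFP, 598-fold lower (107 to 23652). Atp4a, the alpha subunit of the gastric proton pump, counted 447 reads in dsNat10 and 0 in dsGFP, at least 151-fold higher against a floor of 3 reads. Fxyd6, a small membrane protein that binds and modulates the sodium pump, had 348 reads in dsNat10 and 0 in dsGFP, at least 117-fold higher. Fxyd5, another protein of that family, had 239 reads in dsNat10 and 163 in dsGFP (1.48-fold higher, 1.21 to 1.82) and was not called.

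Of other genes with about as many dsGFP reads as Atp12a, 9.50% had 0 reads in dsNat10, where Atp12a itself had 1 read. Of other genes with about as many dsNat10 reads as Atp4a, 4.28% had 0 reads in dsGFP, and for Fxyd6 this was 6.97%. Slc9a7 and Map2k6, members of the transport and regulator lists, have 0 reads in 1 library, as Atp4a and Fxyd6 do. Of genes with like reads, 7.39% and 8.69% share such a 0. Fxyd4, named after its values were seen, had 6 reads in dsNat10 and 188 in dsGFP, below the filter. Among 8 other aquaporins, 1 is in the table and 0 passed the filter. That gene, the glycerol channel Aqp7, had 10.49 estimated reads in dsNat10 and 74.9 in dsGFP. Its reads are fractional and uncertain, and 48.0% of other genes with like reads in dsGFP had 0 reads in dsNat10.

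Genes for sodium, proton, chloride and bicarbonate transport, some of which feed the pump with sodium or set the pH of the cells, went both ways. Of 47 listed, 32 are in the table and 25 passed, with a median log2 ratio of 0.13. Of these, 4 were called higher and 3 lower, beside 30.5% of all genes called either way. Slc4a7 and Slc9a7 passed the filter through dsNat10 alone, so their calls followed from passing. Slc4a7, a sodium-bicarbonate cotransporter, had 530 reads in dsNat10 and 3 in dsGFP (178-fold higher, 60.7 to 868). Slc9a7, a sodium-proton exchanger of internal membranes, had 331 reads in dsNat10 and 0 in dsGFP (at least 111-fold higher). Slc4a8, a sodium-driven bicarbonate exchanger, had 911 reads in dsNat10 and 213 in dsGFP (4.32-fold higher, 3.72 to 5.04). The anion exchanger Slc4a2 had 355 reads in dsNat10 and 121 in dsGFP (2.96-fold higher, 2.40 to 3.67), a call lost with a pseudocount of 5 (0.92).

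The potassium-chloride cotransporter Slc12a4 had 382 reads in dsNat10 and 1371 in dsGFP (3.55-fold lower, 3.17 to 3.99). The other lower genes, named after their values were seen, were Slc9a3r1 and Slc9a8. Slc9a3r1, a scaffold under the apical membrane, had 461 reads in dsNat10 and 1185 in dsGFP (2.54-fold lower, 2.28 to 2.84). Slc9a8, a sodium-proton exchanger, had 324 reads in dsNat10 and 703 in dsGFP (2.15-fold lower, 1.88 to 2.46), a call lost with TPM, FPKM and a pseudocount of 5. The most abundant gene of the list, Slc4a11, counted 10207 reads in dsNat10 and 10390 in dsGFP, and the interval of its ratio includes equality.

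Of 9 potassium channels, which recycle the potassium that the pump brings in, 3 are in the table and all 3 passed. Of these, 0 were called, beside 30.5% of all genes. The calcium-activated channel Kcnn4 had 338 reads in dsNat10 and 697 in dsGFP (2.04-fold lower, 1.79 to 2.33), with a log2 ratio of -0.97 that passed the limit with a pseudocount of 0.1 (-1.02). Kcnk6, whose reads are fractional, had 975.11 estimated reads in dsNat10 and 1651 in dsGFP (1.68-fold lower, 1.55 to 1.82). Kcnk5 had 1083 reads in dsNat10 and 886 in dsGFP (1.23-fold higher, 1.13 to 1.35).

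Of 19 regulators tied to cavitation genes in mouse embryos, 16 are in the table and 13 passed. Of these, 2 were called higher and 4 lower, beside 30.5% of all genes called either way. Cdx2 and Tead4, transcription factors of the trophectoderm, were 4.52-fold lower (110 reads in dsNat10, 502 in dsGFP) and 3.07-fold lower (1338 in dsNat10, 4153 in dsGFP). Map2k3 and Map2k6, kinases that activate p38, had 818 reads in dsNat10 against 2601 in dsGFP and 0 in dsNat10 against 641 in dsGFP. Map2k3 was 3.15-fold lower (2.91 to 3.41), Map2k6 at least 211-fold lower. The p38 kinase Mapk14, named after its values were seen, had 518 reads in dsNat10 and 277 in dsGFP (1.89-fold higher, 1.63 to 2.19) and was not called.

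Prkci, an atypical protein kinase C of the apical domain, had 1108 reads in dsNat10 and 261 in dsGFP (4.29-fold higher, 3.74 to 4.93). Oxsr1, a kinase that acts on cation-chloride cotransporters and was named afterwards, had 961 reads in dsNat10 and 334 in dsGFP (2.91-fold higher, 2.56 to 3.30). Tfap2c, an AP-2 factor needed for cavity formation in mouse embryos, also named afterwards, had 7195 reads in dsNat10 and 5732 in dsGFP (1.27-fold higher, 1.22 to 1.31). The most abundant regulator, Gata3, had 39991 reads in dsNat10 and 30412 in dsGFP (1.33-fold higher). Over these wider lists together, 45 genes passed the filter, and 35.6% were called, 8 higher and 8 lower, beside 30.5% of all genes. The median log2 ratio of the 45 genes was 0.17. Atp4a, Fxyd6, Slc4a7, Slc9a7, Atp12a and Map2k6, at 0 or near it in 1 library, passed through the other library alone. For them a call followed from passing the filter. The share over all genes includes such genes too.

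**Figure D3:**
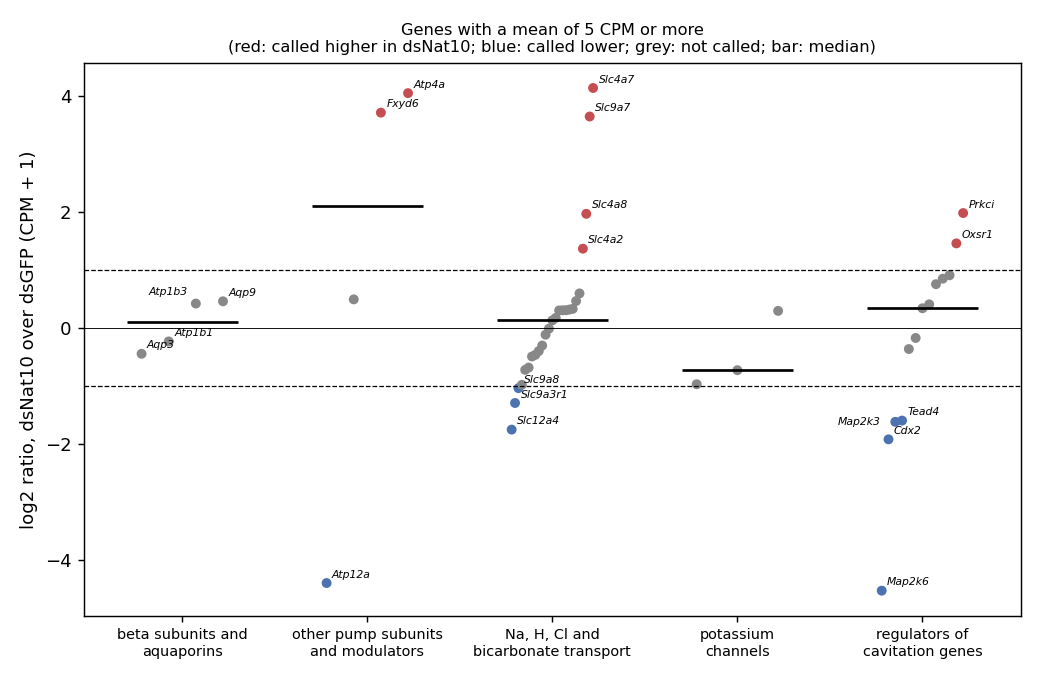
Log2 ratio of dsNat10 over dsGFP (vertical axis, CPM + 1) for the genes of each list that passed the filter (horizontal axis), with the median as a bar. Red genes were called higher in dsNat10, blue genes lower, grey genes not called. The 4 members lie between -0.44 and 0.46, inside the dashed limits, and called genes of the wider lists lie on both sides.

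The direction of the 4 members that passed held under each setting tried. The log2 ratio of Aqp9 ranged from 0.45 to 0.53, that of Atp1b3 from 0.41 to 0.47, that of Aqp3 from -0.46 to -0.39 and that of Atp1b1 from -0.25 to -0.17. None of them reached the 2-fold limit or a limit of 1.5-fold.

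**Figure D4:**
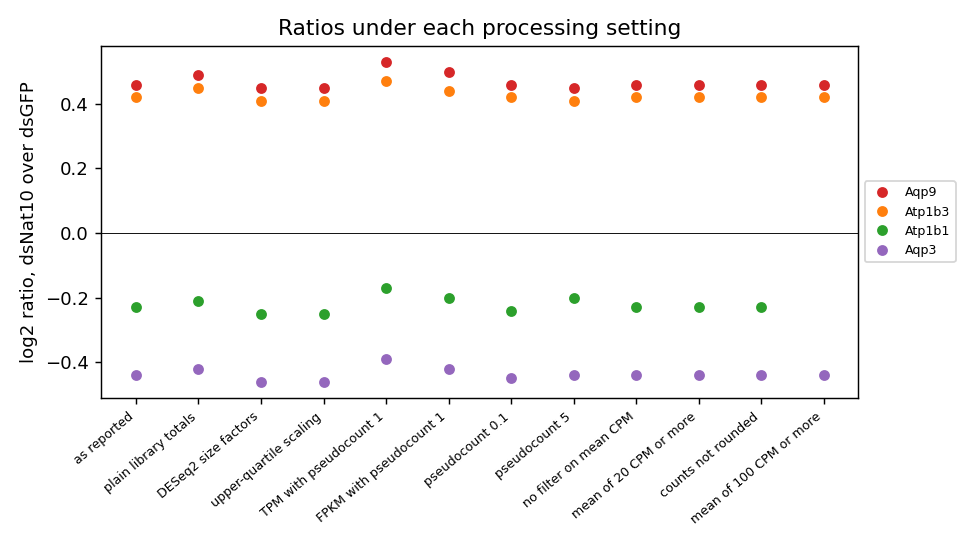
Log2 ratio of dsNat10 over dsGFP (vertical axis) of the members that passed the filter under each processing setting (horizontal axis). Aqp9 and Atp1b3 lie above 0 and Atp1b1 and Aqp3 below 0 in every setting where they pass.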

How the data were processed

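Per the labels' protocols, SMART-seq2 libraries were made from polyadenylated RNA of morulae and sequenced with paired ends (DNBSEQ platform). The submitters' processing notes name Trim Galore for trimming, HISAT for mapping to GRCm38 and HTSeq for counting, and neither versions nor the annotation release are given. The estimated counts were deposited without normalization, and 23.2% of genes hold a fractional value of unstated origin. The authors also deposited TPM, which sums to 1000000 per library, and FPKM. Per-sample columns left unused numbered 0.

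After rounding to whole numbers, counts were scaled to CPM with TMM (edgeR 4.0.16, R 4.3.3), which moved the log2 ratio by -0.03 against plain totals. Ratios are log2 of dsNat10 over dsGFP, each CPM plus 1, which understates differences of low genes. Folds are plain CPM ratios with exact Clopper-Pearson 95% intervals, and levels have Poisson intervals. A gene at 0 was set against a floor of 3 reads in that library. Such a bound takes the reads of the other library as exact, without their counting error. Intervals and floors cover at most counting error, since reads amplified by PCR and lacking molecular identifiers are not independent. No p-value was computed. Pseudocount, filter, size limit, scaling (DESeq2 1.42.0 size factors among them) and unit were varied.

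The members and lists were chosen with earlier results of these data known. From each wider list, up to 5 genes with the largest ratio among those passing the filter and the most abundant were named, with exceptions marked. A few genes are not reported here and were left out of the lists and their counts. Coordinates are from RefSeq GRCm38.p6, matched by Entrez identifier for 12800 of 12836 genes.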

Additional observations from a re-analysis of the deposited data

How the results depend on the processing

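No paired analysis was possible because each group has 1 library. For the same reason no library could be left out. With no filter on mean CPM, 1 member, Aqp11, was called lower, all genes called lower numbered 3252, and the median over the 5 members was -0.23, by the filter's own construction, since Aqp11 then enters. With a mean of 20 CPM or more, 524 genes were called higher and 502 lower, and with a limit of 1.5-fold 2196 higher and 2081 lower. With a mean of 100 CPM or more, added after seeing the data, 49 were called higher and 54 lower, and the median over the members left was 0.42, since Atp1b1 drops out. Plain totals, DESeq2 size factors, upper-quartile scaling, TPM, FPKM, the other pseudocounts and unrounded counts kept the members' counts at 0 and moved the counts over all genes by less than 1.5-fold. Over the 11 alternatives other than the 1.5-fold limit, 51 genes were followed wherever they passed the filter: 4 gained or lost a call (Aqp11, Kcnn4, Slc4a2 and Slc9a8) and no called gene changed sign. The wider lists, with 8 genes called higher and 8 lower as reported, had 12 higher and 13 lower with the 1.5-fold limit, 9 higher and 15 lower with no filter, 2 higher and 4 lower at 20 CPM, and 0 of each at 100 CPM. At 57 reads or fewer, counting error and the frequent zeros of dsNat10 limit what a ratio can show.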
